A study of Mus musculus with 2 samples.

Results

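The 8 genes described here encode transcription factors that set and keep the identity of the hormone cells of the pancreatic islet: Pdx1, Mafa, Nkx6-1, Nkx2-2, Neurod1, Isl1, Pax6 and Hhex. They were chosen by name, and each matched 1 of the 31053 gene rows. Islet cells came from 15-week-old wild-type NOD/ShiLtJ mice, in which leukocytes enter the islets and autoimmune diabetes follows. One group was fed a diet of 16% HC with 4% gluten and the other a diet of 20% HC; the labels do not expand HC. Each diet gave 1 single-cell 3' RNA library (10x Genomics), made from handpicked islets with the cells of 3 mice pooled, so the mice cannot be separated, no replicate error exists and no p-value is given. The libraries are called gluten and HC alone below, and all intervals, in square brackets, are 95% intervals of counting error only.

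Islet cells share an endocrine programme and differ in the hormone they make. Beta cells make insulin, alpha cells glucagon, delta cells somatostatin and PP cells pancreatic polypeptide. Pdx1, Nkx6-1, Isl1, Pax6 and Hhex carry homeodomains of the kind that recognises a short TAAT core, while the homeodomain of Nkx2-2 belongs to the NK2 class and prefers a different core. Pdx1 is needed to form the pancreas and later drives insulin transcription. Nkx6-1 and Nkx2-2 keep beta cells from taking on other islet fates, Isl1 and Pax6 act in all islet endocrine lineages, and Hhex maintains delta cells. Neurod1 is a basic helix-loop-helix factor that binds an E box of the insulin promoter. Mafa is a basic leucine zipper factor that binds Maf elements and marks mature beta cells in rodents.

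In GRCm38, Pdx1 (ENSMUSG00000029644) lies on chromosome 5 at 147269959 to 147275848 on the plus strand, and Nkx6-1 (ENSMUSG00000035187) on the same chromosome at 101658139 to 101664996 on the minus strand. Mafa (ENSMUSG00000047591) lies on chromosome 15 at 75745490 to 75748228, minus strand. Nkx2-2 (ENSMUSG00000027434, 147177546 to 147194243, minus), Neurod1 (ENSMUSG00000034701, 79452521 to 79456751, minus) and Pax6 (ENSMUSG00000027168, 105668900 to 105697364, plus) share chromosome 2. Isl1 (ENSMUSG00000042258) lies on chromosome 13 at 116298281 to 116309689, minus strand, and Hhex (ENSMUSG00000024986) on chromosome 19 at 37434810 to 37440731, plus strand.

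Hormone genes are known targets of several of these factors, so 3 of their promoters are shown, 250 bases up to the transcription start, 5′ to 3′ on the gene's strand, from RefSeq on GRCm38.p6. Capitals mark a match on either strand to 1 of 3 motifs. The first is TAAT, the core recognised by many homeodomains, though not that of Nkx2-2. The second is the E box CATCTG, the kind bound by Neurod1. The third is TGCTGAC, part of the element bound by Maf factors such as Mafa. A match describes the letters and does not show binding. The Ins1 stretch lies at chr19:52264047-52264296 on the plus strand, that of Gcg at chr2:62483654-62483903 on the minus strand and that of Sst at chr16:23890845-23891094 on the minus strand.
Ins1: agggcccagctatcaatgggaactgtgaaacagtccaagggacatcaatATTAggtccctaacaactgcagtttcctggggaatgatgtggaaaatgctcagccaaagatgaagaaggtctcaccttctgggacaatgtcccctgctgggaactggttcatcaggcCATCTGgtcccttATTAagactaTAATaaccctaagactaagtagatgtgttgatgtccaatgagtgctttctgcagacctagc
Gcg: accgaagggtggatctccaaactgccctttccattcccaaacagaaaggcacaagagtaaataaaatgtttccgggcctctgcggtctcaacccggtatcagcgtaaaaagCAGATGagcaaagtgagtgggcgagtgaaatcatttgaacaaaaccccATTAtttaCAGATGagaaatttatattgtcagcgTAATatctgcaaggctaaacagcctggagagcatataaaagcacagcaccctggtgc
Sst: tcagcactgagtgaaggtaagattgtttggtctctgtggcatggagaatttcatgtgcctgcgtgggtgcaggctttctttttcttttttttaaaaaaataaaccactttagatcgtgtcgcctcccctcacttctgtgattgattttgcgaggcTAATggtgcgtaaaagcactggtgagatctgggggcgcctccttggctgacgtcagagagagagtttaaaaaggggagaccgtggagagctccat
Ins1 held 3 TAAT cores and 1 CATCTG, Gcg 2 of each, and Sst 1 TAAT core 95 bases before the start. Among 32851 promoter stretches of the same length, 54.9% held a TAAT core, 14.4% a CATCTG and 3.81% a TGCTGAC. The stretch of Ppy, the pancreatic polypeptide gene, held 1 TGCTGAC and no TAAT. Of the members, Isl1 had 2 TAAT cores, Pax6 had 2 in each of its 2 stretches and Nkx2-2 had 1 TAAT and 1 CATCTG, while Pdx1, Nkx6-1, Neurod1 and Hhex had none of the 3 motifs in this stretch. Mafa and Ins2 were not among the promoters matched, which covered 7 of 8 members.

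Cells were sorted in silico by the share of their UMIs (unique molecular identifiers, each counting 1 molecule) that came from a hormone, a choice that uses none of the 8 genes. A beta cell had at least 10% insulin (Ins1 and Ins2), and an alpha, delta or PP cell at least 5% of Gcg, Sst or Ppy, each at least 3 times any other hormone. The gluten library held 1265 beta, 1109 alpha, 583 delta and 44 PP cells, and the HC-alone library 1598, 605, 290 and 44. Of genes that mark these types and that the gates did not use, 5 of 6 beta, 4 of 6 alpha, 6 of 6 delta and 4 of 6 PP genes were highest in their own gate in both libraries. The exceptions included Slc30a8, which was higher in alpha cells, Gc, which was higher in PP cells, and Cartpt and Aqp4, which were highest in PP cells in 1 library and in neither. Levels are UMIs per 1000000 (CPM) summed over the cells of a gate. T cells, which should lack the islet factors, show the level that free RNA gives in them, except that Hhex is also used by blood cells. That level need not hold in the islet gates. Insulin made up 1.24% of T-cell UMIs with gluten and 0.771% with HC alone, against 0.447% and 0.333% in alpha cells. The cells differed in depth, with median UMIs per beta cell of 27668 with gluten and 37350 with HC alone. Of the 8200 and 7758 barcodes in the libraries, 15 were shared.

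Mafa and Nkx6-1 were highest in beta cells by a wide margin. Mafa stood at 244 CPM [239, 249] in beta cells with gluten and 272 [268, 276] with HC alone. In the other gates of the gluten library it had 4.83 CPM in alpha, 6.87 in delta and 1.09 in PP cells, and with HC alone 1.19, 3.50 and 0.843. These low levels lay under those of T cells, 10.8 CPM with gluten and 3.96 with HC alone. Per 1000000 insulin UMIs, Mafa counted 1081 in alpha cells with gluten and 358 with HC alone, and 1123 and 785 in delta cells, against 872 and 513 in T cells and 399 and 442 in beta cells. The part of free RNA in the low Mafa counts was not tested. Nkx6-1 had 153 CPM [149, 156] in beta cells with gluten and 171 [168, 174] with HC alone. It was lower in the other islet gates, and T cells had 5.13 CPM with gluten and 1.92 with HC alone. PP cells had 20.8 CPM [12.5, 32.5] with gluten and 32.0 [22.7, 44.0] with HC alone, alpha cells 10.7 [8.96, 12.7] and 9.32 [7.46, 11.5], and delta cells 8.69 [6.29, 11.7] and 4.09 [2.24, 6.86]. The delta intervals overlapped those of T cells, [3.14, 7.93] with gluten and [1.10, 3.12] with HC alone. Per 1000000 insulin UMIs, Nkx6-1 counted 2397 in alpha cells with gluten and 2798 with HC alone, and 1420 and 916 in delta cells, against 415 and 249 in T cells and 249 and 277 in beta cells. In PP cells the ratio was 7074 with gluten and 12799 with HC alone, from 19 and 38 Nkx6-1 UMIs. The part of free RNA in these counts was not tested.

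Pdx1 was shared by beta and delta cells. It had 82.6 CPM [79.8, 85.5] in beta cells and 94.0 [85.7, 103] in delta cells with gluten, and 82.2 [80.0, 84.4] and 114 [103, 126] with HC alone. Alpha cells had 3.06 CPM with gluten and 2.71 with HC alone, 27.0 and 30.3 times below beta cells. On a scale without hormone UMIs the folds were 46.4 and 48.7, and when a hormone had to exceed each other hormone 30 times, alpha cells had 1.56 and 1.43 CPM of Pdx1 against 83.4 and 82.0 in beta cells. PP cells lay between, at 7.66 CPM [3.08, 15.8] from 7 UMIs with gluten and 24.5 [16.4, 35.1] from 29 UMIs with HC alone. These intervals do not overlap, but at a hormone dominance of 30 times they did, with 5.87 CPM [1.21, 17.2] from 3 UMIs with gluten and 16.0 [7.34, 30.5] from 9 UMIs with HC alone.

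The long noncoding gene Plut overlaps Pdx1 on the opposite strand (GRCm38, chromosome 5, 147228596 to 147271521, minus strand; Pdx1 at 147269959 to 147275848, plus strand). Plut was a beta-cell transcript, at 51.8 CPM [49.6, 54.1] with gluten and 57.3 [55.5, 59.2] with HC alone. In delta cells, where Pdx1 was at least as high as in beta cells in CPM, Plut had 2.83 CPM [1.55, 4.75] from 14 UMIs with gluten and 2.34 [1.01, 4.60] from 8 UMIs with HC alone. A UMI of Plut was found in 58.3% of beta cells with gluten and 69.7% with HC alone, but in 2.40% and 2.76% of delta cells. Whether the counting used strand is not given in the sources used here, so reads of the shared stretch may be split between both genes. Plut was chosen for this description after its values were seen.

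Hhex was highest in delta cells. It had 433 CPM [415, 452] in delta cells with gluten and 442 [420, 464] with HC alone, and 10.3 [8.59, 12.2] and 14.0 [11.7, 16.6] in alpha cells, a difference of 42.0-fold and 31.6-fold. The mean log2 ratio of delta over alpha cells was 5.19, and 7.69 at a hormone dominance of 30 times. PP cells had 20.8 CPM with gluten and 27.0 with HC alone. In beta cells Hhex had 6.76 CPM [5.97, 7.62] with gluten and 6.78 [6.17, 7.44] with HC alone, against 7.96 and 3.48 in T cells. Hhex also works in blood and endothelial cells, and it was present there. Endothelial cells had 50.1 CPM [38.7, 63.9] with gluten and 74.7 [58.1, 94.5] with HC alone, and myeloid cells 25.7 and 31.4. Their log2 ratios of gluten over HC alone were -0.58 [-1.09, -0.07], where 3.00% of genes were 2-fold or more apart, and -0.29 [-0.87, 0.28], where 4.97% were. T cells went the other way, at 1.19 [0.41, 1.98] from 31 UMIs with gluten and 29 with HC alone. Both counts were under the 50 UMIs needed for a gene to be measured, and 4.63% of measured genes were 2-fold or more apart. In T cells each of the other factors was also higher with gluten. Mafa had 10.8 CPM against 3.96 with HC alone, Isl1 7.19 against 2.40 and Pdx1 1.54 against 1.32. Insulin made up 1.24% of T-cell UMIs with gluten and 0.771% with HC alone. The part of free RNA in the T-cell Hhex ratio was not tested. B cells had 44.2 CPM [36.9, 52.5] from 130 UMIs with gluten and 89.5 [80.3, 99.4] from 348 UMIs with HC alone, a log2 ratio of -1.02 [-1.32, -0.72], and 5.26% of the genes measured in B cells were 2-fold or more apart. These other cell types were looked at after the data were seen.

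Isl1, Pax6, Neurod1 and Nkx2-2 were present in all 4 gates in graded amounts. Isl1 was highest in delta cells, at 430 CPM [412, 448] with gluten and 503 [479, 527] with HC alone, followed by alpha cells with 200 and 227, PP cells with 128 and 169 and beta cells with 80.4 and 83.4. Pax6 kept nearly the same order over a smaller range. It had 208 CPM in delta cells, 153 in alpha, 114 in PP and 103 in beta cells with gluten, and 277, 153, 158 and 109 with HC alone. For Pax6 the PP and beta intervals overlapped with gluten, and the alpha and PP intervals overlapped with HC alone. Neurod1 was highest in alpha cells, at 140 CPM [133, 146] with gluten and 155 [148, 164] with HC alone, and lowest in PP cells, at 46.0 [33.1, 62.1] and 62.4 [49.0, 78.3]. Nkx2-2 was highest in alpha cells, at 90.0 CPM [84.8, 95.4] and 78.7 [73.1, 84.7], close to PP cells with 76.6 and 75.0, and lowest in delta cells, at 35.4 [30.3, 41.0] and 27.7 [22.4, 33.9]. T cells had between 0.600 and 7.19 CPM of these 4 factors. Cerkl overlaps Neurod1 on the same strand, so reads of the shared stretch are uncertain.

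**Figure D1:**
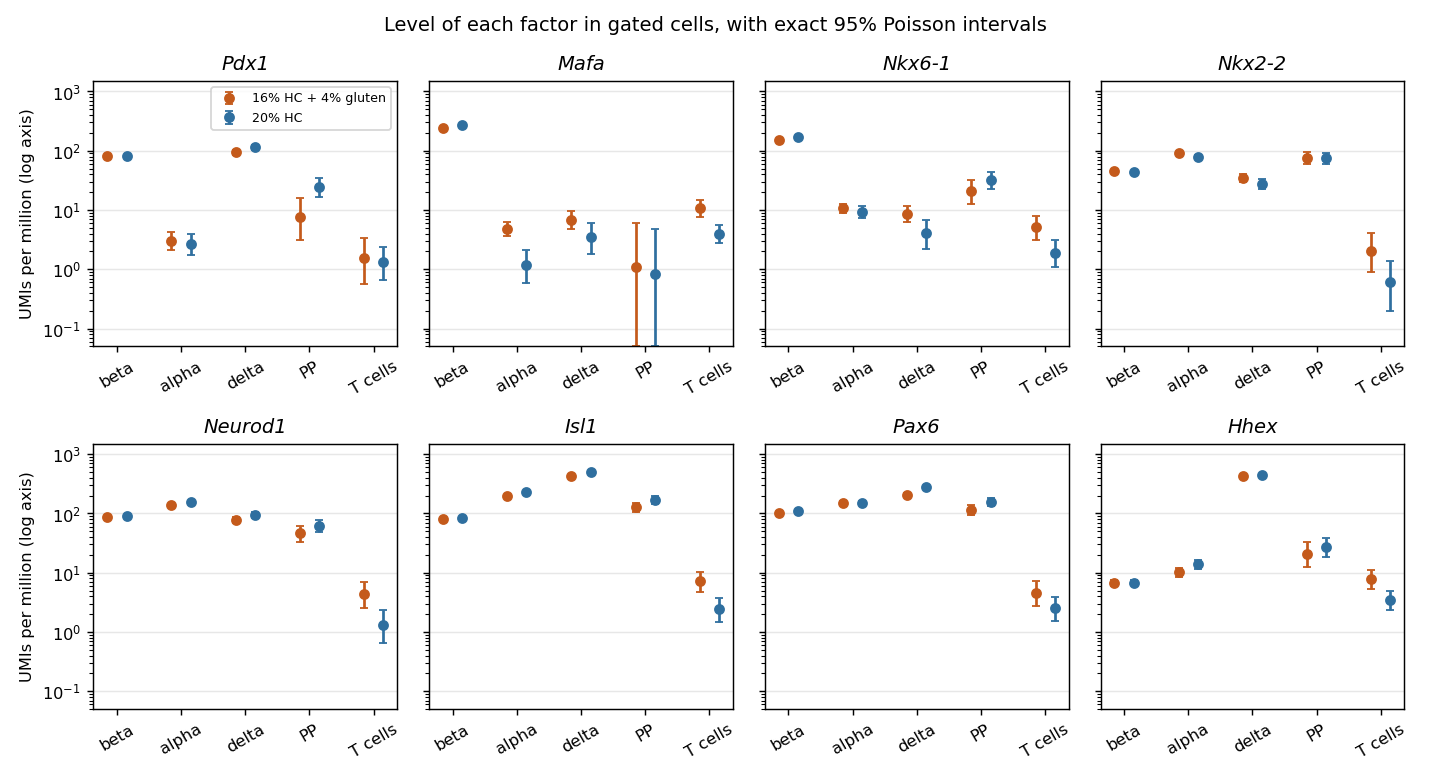
Level of each factor (CPM, log axis) in beta, alpha, delta and PP cells and in T cells as a free-RNA level, for the gluten library (orange, left) and the HC-alone library (blue, right). Points are sums over cells with exact 95% Poisson intervals, cut at the lower edge of the axis; Mafa and Nkx6-1 peak in beta cells, Pdx1 in beta and delta cells, Hhex and Isl1 in delta cells.

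How beta cells compare with other cells depended on the scale. Insulin took up 61.3% of all UMIs of beta cells with gluten and 61.5% with HC alone, while glucagon took 34.9% and 38.6% of alpha cells and somatostatin 21.2% and 19.6% of delta cells. In CPM the median gene had a log2 ratio of -0.79 in beta over alpha cells and -1.14 in beta over delta cells. Per 1000000 of the UMIs left after hormone, acinar and mitochondrial genes, it had -0.01 and 0.05. Both scales are therefore given. A factor was called when it was 2-fold or more apart in the same direction in both libraries, with at least 50 UMIs on the higher side.

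In beta over alpha cells, Pdx1, Mafa and Nkx6-1 were called higher in CPM, 3 of 8 members against 4.14% of all genes, and also on the non-hormone scale, where 7.85% of all genes were. Mafa had log2 ratios of 5.66 [5.30, 6.05] with gluten and 7.83 [6.99, 8.84] with HC alone, and Nkx6-1 had 3.83 [3.59, 4.09] and 4.19 [3.89, 4.52]. Isl1 was called lower in CPM, at -1.32 and -1.44, as were 30.7% of all genes, but not on the non-hormone scale, where 7.26% were. On that scale Nkx2-2, Neurod1 and Pax6 differed little between beta and alpha cells, at 0.867-, 1.05- and 1.15-fold with gluten and 0.897-, 0.929- and 1.15-fold with HC alone.

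In beta over delta cells, Mafa and Nkx6-1 were called higher in CPM (3.86% of all genes) and Isl1, Pax6 and Hhex lower (53.4% of all genes). On the non-hormone scale Nkx2-2 and Neurod1 joined the higher ones (8.08% of all genes). Nkx2-2 was then 2.71-fold higher in beta cells with gluten and 3.38-fold with HC alone, and Neurod1 2.32- and 2.07-fold. Isl1 and Hhex were still lower (6.89% of all genes), with Hhex at a CPM log2 ratio of -6.00 [-6.19, -5.82] with gluten and -6.02 [-6.18, -5.87] with HC alone. Pax6 was not, at 1.04-fold with gluten and 0.842-fold with HC alone, and TMM scaling (edgeR's trimmed mean of M values) turned its mean log2 ratio to 0.11. Pdx1 also turned: its level in beta over delta cells was 0.879-fold with gluten and 0.718-fold with HC alone in CPM, but 1.86- and 1.53-fold on the non-hormone scale. The order of beta and delta cells in Pdx1 thus differed between the scales.

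Between delta and alpha cells, Pdx1, Isl1 and Hhex were called higher in delta cells (9.66% of all genes) and Nkx2-2 lower (4.10%) in CPM, of 7 members measured. Pdx1, Hhex and Nkx2-2 held on the non-hormone scale (5.55% of all genes higher and 5.40% lower), where Neurod1 was called lower as well, at 0.453-fold with gluten and 0.450-fold with HC alone. Between PP and alpha cells, Neurod1 was lower in PP cells and no member was higher, of 4 measured (9.21% and 0.368% of all genes). The same held on the non-hormone scale (8.03% and 0.462%). In delta over PP cells, Pdx1, Isl1 and Hhex were higher (18.7%) and Nkx2-2 lower (0.405%), of 6 measured, on the non-hormone scale as well (10.4% and 0.881%). In beta over PP cells, Pdx1, Mafa and Nkx6-1 were higher (11.5%), of 7 measured, with no member lower (6.06%). Neurod1 joined them on the non-hormone scale (14.0%), again with no member lower (1.07%). Mafa rested there on 1 UMI in the PP cells of each library, with log2 ratios of 7.80 [5.32, 13.11] with gluten and 8.33 [5.85, 13.64] with HC alone.

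**Figure D2:**
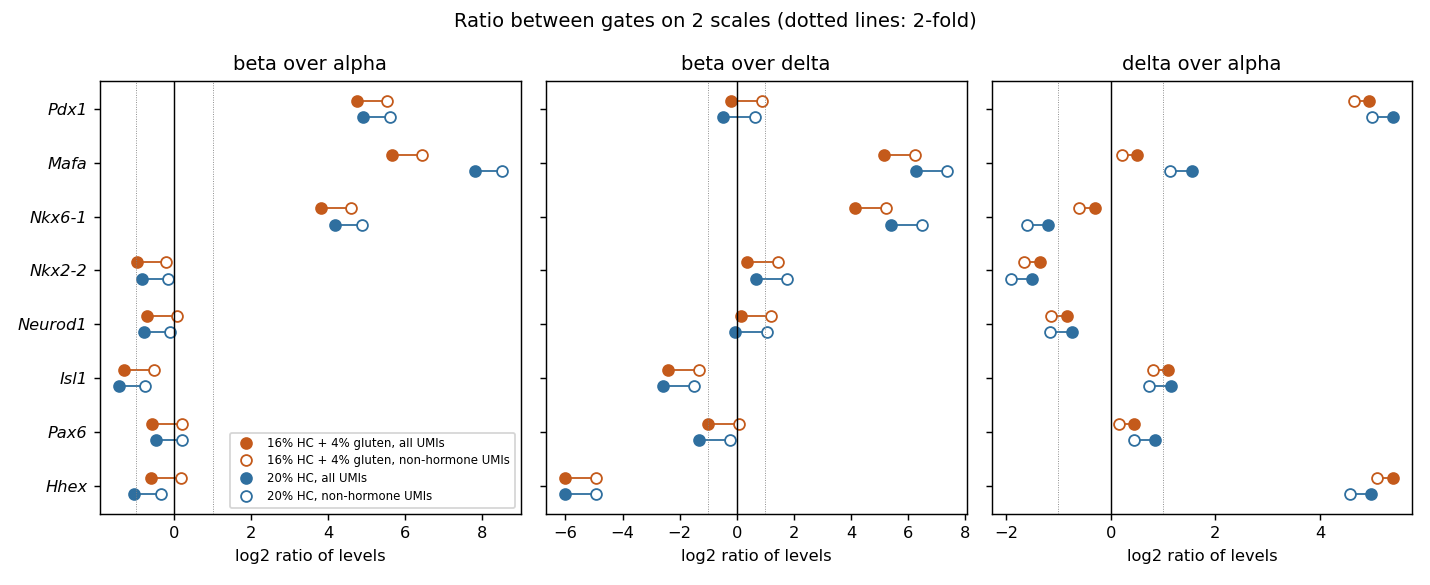
Log2 ratio of each factor in beta over alpha, beta over delta and delta over alpha cells, with filled points on all UMIs and open points on non-hormone UMIs, for the gluten library (orange) and the HC-alone library (blue). In beta over delta cells the open points lie to the right of the filled ones; Pdx1 in both libraries, Pax6 with gluten and Neurod1 with HC alone change sides of 0, while Mafa, Nkx6-1, Isl1 and Hhex do not.

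Of a list of 57 other islet transcription factors, 43 were measured in beta and alpha cells. In CPM, 2 of them were higher in beta cells and 22 lower, and on the non-hormone scale 5 and 16 of 45. Of all genes, 4.14% were higher and 30.7% lower in CPM, and 7.85% and 7.26% on the non-hormone scale. Irx1, a homeodomain factor, had 0.433 CPM in beta and 95.6 in alpha cells with gluten, and 0.290 and 126 with HC alone. Mnx1, a homeodomain factor of beta cells, had 11.2 CPM in beta and 0.202 in delta cells with gluten, and 11.9 and 0.292 with HC alone. Neurog3, the factor that starts the endocrine programme in the embryo, had 0.586 CPM in beta and 38.2 in delta cells with gluten, 0.825 and 49.1 with HC alone, and 0 UMIs in PP cells of both libraries. Of Pdx1 and Mafa targets in beta cells, Slc2a2, the glucose transporter GLUT2, had 243 CPM in beta and 7.08 in delta cells with gluten and 247 and 1.17 with HC alone. Iapp, which encodes amylin, had 40201 CPM in beta and 26495 in delta cells with gluten and 48062 and 34751 with HC alone.

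At the level of cells, shares were compared after each cell was thinned to 2000 UMIs, which leaves out shallower cells (none of the gated cells, and 424 of 1212 T cells with gluten and 369 of 2200 with HC alone). A UMI of Mafa was then seen in 37.5% [34.9, 40.3] of beta cells with gluten and 43.3% [40.9, 45.8] with HC alone, against 2.16% and 0.601% of T cells. Hhex was seen in 55.9% of delta cells with gluten and 57.9% with HC alone, against 1.40% and 0.546% of T cells. At full depth these shares were 94.9% and 97.3% for Mafa in beta cells and 94.0% and 97.6% for Hhex in delta cells. Pdx1 was seen in 52.8% and 71.0% of delta cells at full depth, where the median cell had 7924 UMIs with gluten and 10522 with HC alone.

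Beta cells of at least 20000 UMIs, thinned to that number, varied in these factors. The variance of Mafa over its mean was 1.86 among 1044 cells with gluten and 1.87 among 1400 with HC alone, where independent counts would give 1. No Mafa UMI was found in 3.83% and 3.21% of these cells, against 0.701% and 0.400% for independent counts at the same mean. Nkx6-1 had ratios of 1.54 and 1.47, and the lowest ratios were those of Pdx1, 1.15 and 1.14, and Nkx2-2, 1.16 and 1.13. The highest were those of Hhex, 3.51 and 2.95. At the same relative spread this ratio rises with the mean, which was 4.96 UMIs for Mafa and 0.887 for Nkx2-2 with gluten. The ratios therefore do not rank the factors by how much they vary. Correlations between pairs of the 8 factors across these cells were at most 0.16 in size in either library, apart from Isl1 with Hhex at 0.23 with gluten and 0.32 with HC alone. Of the 7 factors other than Hhex, all were found in 20.1% of these beta cells with gluten and 21.4% with HC alone, and 6 in 36.6% and 40.1%. No cell had none of them. Beta-gated cells that also held somatostatin, described below, were not left out here. Their part in the Hhex variance ratios and in the correlation of Isl1 with Hhex was not tested.

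Most Hhex UMIs of beta-gated cells lay in a small set of cells that also held somatostatin. Of 265 UMIs with gluten, 204 lay in cells with 2% or more somatostatin and 47 in cells with 0.2% to 2%, and of 444 with HC alone, 360 and 62. Among beta-gated cells with under 0.02% somatostatin, 13 of 1068 with gluten (1.22% [0.650, 2.07]) and 19 of 1421 with HC alone (1.34% [0.807, 2.08]) had a UMI of Hhex. Among those with 2% or more, 58 of 65 with gluten (89.2% [79.1, 95.6]) and 79 of 83 with HC alone (95.2% [88.1, 98.7]) had one. The cells with 2% or more held 90.7 CPM of Hhex with gluten and 90.1 with HC alone, more Isl1 than cells with under 0.02% somatostatin (172 against 73.2 CPM with gluten, 180 against 75.3 with HC alone) and less Mafa (150 against 252 CPM, and 175 against 279). The delta markers Rbp4 and Cd24a were higher in the same cells, at 3689 and 132 CPM with gluten, against 28.8 and 1.44, and at 3680 and 140 CPM with HC alone, against 16.5 and 0.811. Their median depth was 34081 UMIs with gluten, against 27843, and 45603 with HC alone, against 37190. Whether such barcodes held 1 cell or 2 was not tested.

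Without cells of 0.2% or more somatostatin, 7.11% of beta-gated cells with gluten and 6.95% with HC alone, Hhex in beta cells was 0.393 CPM from 14 UMIs with gluten and 0.368 from 22 UMIs with HC alone. This was under the level in T cells, though blood cells also use Hhex. Mafa had 251 CPM with gluten and 280 with HC alone in the beta cells kept, Pdx1 83.5 and 82.2, and Isl1 73.3 and 75.3. Alpha cells with under 0.02% somatostatin had 0.964 CPM of Hhex with gluten and 4.45 with HC alone, where 32 UMIs lay in 7 cells. When a hormone had to exceed each other hormone 30 times, alpha cells had 0.876 CPM [0.401, 1.66] of Hhex with gluten and 4.81 [3.39, 6.63] with HC alone, while their Nkx6-1 stayed at 9.63 [7.83, 11.7] and 9.23 [7.21, 11.6]. PP cells then had 3.91 CPM of Hhex from 2 UMIs with gluten and 8.92 from 5 UMIs with HC alone, and 17.6 and 28.5 CPM of Nkx6-1. Both limits on a second hormone were added after the data were seen.

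**Figure D3:**
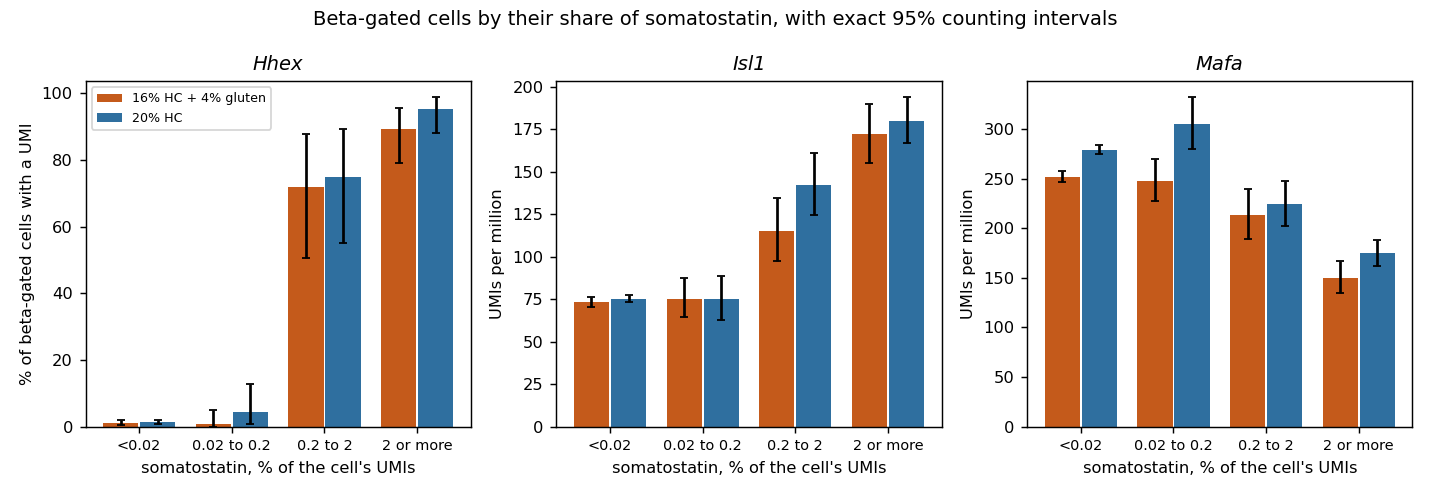
Beta-gated cells by the share of their UMIs from somatostatin, for the gluten library (orange, left) and the HC-alone library (blue, right), with exact 95% counting intervals. The left panel gives the percentage of cells with a UMI of Hhex, the middle and right panels the level of Isl1 and Mafa in CPM; Hhex is nearly absent below 0.2% somatostatin.

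The diets were compared within each gate, gluten over HC alone. In beta cells none of the 8 factors was 2-fold apart, where 1.91% of 11121 measured genes were (1.89% on the non-hormone scale). Mafa was lower with gluten, at 244 CPM against 272 with HC alone, a log2 ratio of -0.15 [-0.19, -0.12], and so was Nkx6-1, at 153 against 171, a ratio of -0.16 [-0.21, -0.12]. Neurod1 had -0.07 [-0.13, -0.01] and Pax6 -0.09 [-0.14, -0.03]. The intervals of Pdx1 at 0.01, Nkx2-2 at 0.05, Isl1 at -0.05 and Hhex at -0.01 held 0. The median size of the log2 ratio over all measured genes was 0.15, so Mafa and Nkx6-1 lay near the middle of all genes, and with 1 library per diet neither ratio can be set against the spread between animals. Beta cells of the 2 libraries also differed in immediate early genes, 9332 CPM with gluten and 3217 with HC alone, and in interferon response genes, 818 and 1165 CPM. The part of the immediate early genes in the ratios was not tested.

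In delta cells 6 of 8 factors were measured and none was 2-fold apart, against 2.25% of genes (2.30% on the non-hormone scale). Pax6 had 208 CPM with gluten and 277 with HC alone, a ratio of -0.41 [-0.54, -0.28]. Isl1 had -0.23 [-0.32, -0.13], Pdx1 -0.28 [-0.48, -0.09] and Neurod1 -0.25 [-0.47, -0.04], while Hhex had -0.03 [-0.12, 0.07]. Nkx2-2 was the only one of the 6 above 0, at 0.35 [-0.02, 0.73], with 35.4 CPM with gluten and 27.7 with HC alone. The median of all genes was -0.03 and the median size 0.17. Acinar genes, RNA of the exocrine pancreas, stood at 646 CPM in delta cells with gluten and 5297 with HC alone. Without cells of 10 or more acinar UMIs, Pax6 had -0.45, Isl1 -0.20 and Pdx1 -0.40. Delta cells also differed in immediate early genes, 13063 CPM with gluten and 5886 with HC alone. Interferon response genes stood at 1299 and 2888 CPM, and the median depth was 7924 and 10522 UMIs. The part of these differences in the ratios was not tested. In PP cells, with 44 cells in each library and 124 CPM of acinar genes with gluten and 8469 with HC alone, 4 factors were measured and none was 2-fold apart, against 3.91% of genes (3.79% on the non-hormone scale). Pax6 had -0.47 [-0.83, -0.12] and Isl1 -0.40 [-0.75, -0.07], and Isl1 had -0.07 without cells of 10 or more acinar UMIs. Neurod1 had -0.44 [-1.02, 0.12] and Nkx2-2 0.03 [-0.44, 0.50].

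In alpha cells 1 of 7 measured factors was 2-fold apart, against 2.47% of genes (2.50% on the non-hormone scale). This was Mafa, with 60 UMIs (4.83 CPM) with gluten and 11 UMIs (1.19 CPM) with HC alone, a ratio of 2.02 [1.08, 3.09]. T cells, which should lack Mafa, had more of it, 10.8 CPM with gluten and 3.96 with HC alone, so the alpha-cell level lay under that of T cells in both libraries. The part of free RNA in this ratio was not tested. The other ratios in alpha cells ran between -0.44 for Hhex and 0.20 for Nkx6-1. Of the Hhex UMIs, 116 of 128 with gluten and 91 of 129 with HC alone lay in alpha-gated cells with 2% or more somatostatin. Isl1 had -0.18 [-0.26, -0.10], Neurod1 -0.16 [-0.26, -0.05], Nkx2-2 0.19 [0.06, 0.33] and Pax6 -0.00 [-0.10, 0.10]. Alpha cells also differed in immediate early genes, 12367 CPM with gluten and 8811 with HC alone. Interferon response genes stood at 1076 and 1729 CPM, acinar genes at 657 and 308 CPM, and the median depth was 9453 and 13586 UMIs. The part of these differences in the alpha-cell ratios was not tested.

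**Figure D4:**
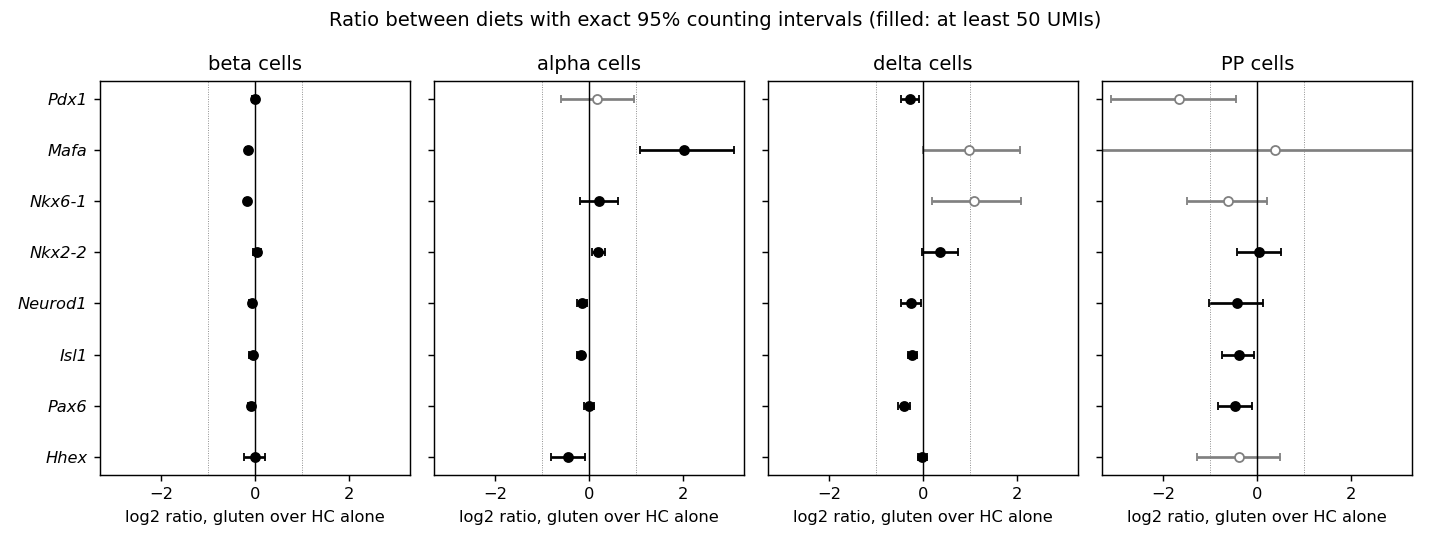
Log2 ratio of each factor, gluten over HC alone, in beta, alpha, delta and PP cells, with exact 95% counting intervals; filled points have at least 50 UMIs in the higher library, open grey points fewer, and dotted lines mark 2-fold. The filled points lie within 2-fold except Mafa in alpha cells.

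Of the other islet transcription factors, 1 of 44 measured in beta cells was 2-fold apart between the diets and none of 42 in alpha, 33 in delta and 13 in PP cells. Over all genes the shares were 1.91% in beta, 2.47% in alpha, 2.25% in delta and 3.91% in PP cells. Nkx6-2, a paralogue of Nkx6-1, had 0.178 CPM from 7 UMIs in beta cells with gluten and 2.00 CPM from 131 UMIs with HC alone, a ratio of -3.49 [-4.83, -2.40]. A UMI of it was found in 5 of 1265 beta cells with gluten and 104 of 1598 with HC alone, and in at most 1 alpha, delta or PP cell of either library. Among beta cells of high interferon load it had 0.223 CPM from 2 UMIs with gluten and 2.54 CPM from 69 UMIs with HC alone. Among those of low load it had 0.215 CPM from 4 UMIs with gluten and 1.08 CPM from 15 UMIs with HC alone. Of the known targets, 1 of 13 measured in PP cells was 2-fold apart, Iapp with 1429 CPM with gluten and 3730 with HC alone, and none of 26 in beta, 20 in alpha and 19 in delta cells.

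Islets of NOD mice hold leukocytes, and interferon acts on beta cells there, so beta cells were split into 3 parts of equal size over both libraries by the summed level of 34 interferon response genes. The part of high load held 296 of 1265 beta cells with gluten and 658 of 1598 with HC alone, and that of low load 599 and 356. Mafa was lower at high load in both libraries, at 208 CPM against 266 at low load with gluten, a log2 ratio of -0.36 [-0.44, -0.28], and 252 against 286 with HC alone, -0.18 [-0.24, -0.13]. Nkx6-1 had 140 against 158 CPM with gluten, -0.18 [-0.28, -0.08], and 160 against 179 with HC alone, -0.16 [-0.23, -0.09]. The median gene had 0.08 with gluten and 0.15 with HC alone. On the non-hormone scale, where the median gene had -0.09 and -0.03, Mafa had -0.54 and -0.37 and Nkx6-1 -0.36 and -0.34, and the other factors apart from Hhex ran from -0.36 to -0.23 with gluten and from -0.23 to -0.05 with HC alone. Pdx1 was lower with gluten, at -0.18 [-0.31, -0.05], and had 0.00 [-0.10, 0.11] with HC alone. In CPM the intervals of Nkx2-2, Neurod1 and Pax6 held 0 in both libraries, and Isl1 had -0.08 [-0.21, 0.05] with gluten and 0.14 [0.03, 0.24] with HC alone. The load is a range and not a cell type, with 78 cells with gluten and 146 with HC alone within 1.2 times of the upper limit.

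Hhex was the only one of the 8 factors 2-fold apart between these parts, where 2.47% of genes were with gluten and 2.86% with HC alone. It had 10.8 CPM at high load against 3.38 at low load with gluten and 10.1 against 0.936 with HC alone. Among beta cells with under 0.2% somatostatin it had 0.384 CPM from 3 UMIs against 0.286 from 5 UMIs with gluten, and 0.424 from 10 UMIs against 0.290 from 4 UMIs with HC alone. Both were under the T-cell level, but blood cells also use Hhex, so that level does not show free RNA alone. Mafa remained lower in the cells of high load, at 220 against 270 CPM with gluten, -0.29 [-0.37, -0.21], and 262 against 286 with HC alone, -0.13 [-0.19, -0.07], and so did Nkx6-1, at -0.17 [-0.27, -0.07] and -0.13 [-0.20, -0.06]. Isl1 had -0.29 [-0.44, -0.14] with gluten and -0.05 [-0.16, 0.06] with HC alone in these cells. Within both parts Mafa and Nkx6-1 were lower with gluten, as over all beta cells. Mafa had a ratio of gluten over HC alone of -0.28 [-0.35, -0.20] at high load and -0.10 [-0.16, -0.04] at low load, and Nkx6-1 had -0.20 [-0.29, -0.11] and -0.18 [-0.26, -0.10]. At high load the median depth was 27960 UMIs with gluten, against 27618 at low load, and 37858 with HC alone, against 35724. Insulin took 58.4% of the UMIs at high load and 62.8% at low load with gluten, and 59.9% and 64.6% with HC alone. Acinar genes stood at 112 CPM at high and 148 at low load with gluten, and 442 and 20.2 with HC alone, and their part in these ratios was not tested.

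**Figure D5:**
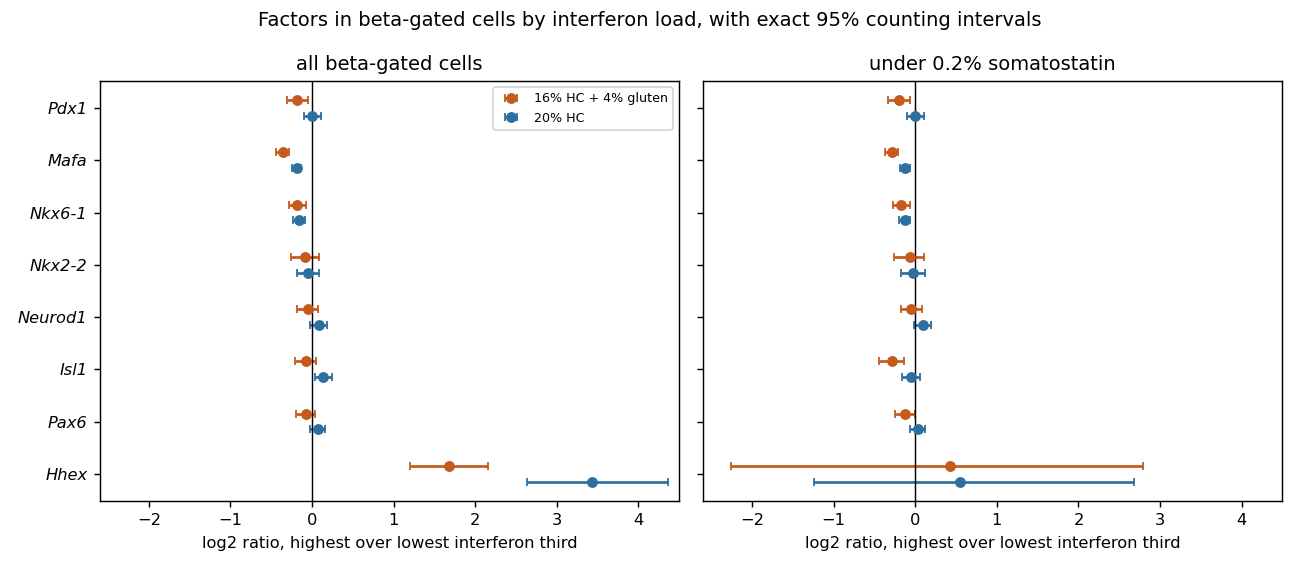
Log2 ratio of each factor in beta-gated cells of high over low interferon load, in all beta-gated cells (left) and in those with under 0.2% somatostatin (right), for the gluten library (orange) and the HC-alone library (blue), with exact 95% counting intervals. Mafa and Nkx6-1 lie below 0 in both libraries and both panels; Hhex lies above 0 in the left panel, and its intervals hold 0 in the right panel.

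A split by 24 immediate early genes, which respond to stimulation and to tissue dissociation, followed the libraries: the part of high load held 904 beta cells with gluten and 50 with HC alone, and that of low load 34 and 921. Nkx6-1 was higher at high load, at 160 CPM against 118 with gluten and 210 against 164 with HC alone, and Isl1 at 82.1 against 59.5 and 134 against 80.0. The log2 ratios of Nkx6-1 were 0.45 with gluten and 0.36 with HC alone, where the median gene had 0.31 and -0.05. On the non-hormone scale Nkx6-1 had 0.44 and 0.05, where the median gene had 0.30 and -0.36. Hhex, the delta cell factor, had 8.43 CPM at high against 2.29 at low load (2 UMIs) with gluten, and 31.4 against 4.04 with HC alone. Between these parts 15.2% of measured genes were 2-fold or more apart with gluten and 8.98% with HC alone. Most Hhex of beta-gated cells lay in cells that also held somatostatin and had more Isl1. The part of such cells in the Hhex and Isl1 ratios was not tested. With HC alone the cells of high load had a median of 20679 UMIs, against 37781 at low load, and 52.1% insulin, against 62.3%, and the part of depth and insulin share in these ratios was not tested. The values rest on 34 cells of low load with gluten and 50 of high load with HC alone. Diet and immediate early load cannot be told apart here.

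The genes whose levels over the 8 profiles (4 gates in 2 libraries) were most like those of a member were, by Pearson correlation, Stk26, Hadh and Cbr3 for Pdx1, Prss53, Angptl7 and Ins2 for Mafa, and Reps2, Aldh1l2 and Trpc4 for Nkx6-1. They were Acat1, Kcnh6 and Sv2b for Nkx2-2, Desi1, Cdkn1c and Memo1 for Neurod1, Tomm40l, Faap20 and Wtap for Isl1, Tigd5, Tada2a and Scamp1 for Pax6, and Ly6h, Hgfac and Apip for Hhex. Correlations ran between 0.955 and 0.997 over 11658 genes. None of the 24 genes was among the top 3 by rank correlation, but over 8 profiles rank correlations tie at 1.000. Faap20 and Wtap rank the 8 profiles as Isl1 does, so the top 3 by rank can rest on the order of tied genes. Hadh, an enzyme of fatty acid oxidation, followed Pdx1 in beta and delta cells, at 430 and 434 CPM with gluten and 401 and 433 with HC alone, and was low in alpha cells, at 24.6 and 25.2. Prss53 followed Mafa, with 278 CPM in beta cells with gluten and 317 with HC alone, and at most 9.30 in the other gates. Ins2 was itself part of the beta gate. Among the members themselves Isl1 and Pax6 were most alike, with a correlation of 0.967 over the 8 profiles.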

How the data were processed

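UMI counts per gene and barcode were deposited by the authors as raw counts, and the submitters' processing notes name Cell Ranger 4.0.0 and mm10. How barcodes were called, which annotation was used and whether strand was used is not given in the sources used here. The authors' files list 8200 barcodes with 88268070 UMIs (gluten) and 7758 with 116900677 UMIs (HC alone). Gene rows were placed with GENCODE M21 (31011 of 31053 matched). Barcodes with at least 500 UMIs, 200 genes and at most 20% mitochondrial UMIs were kept, and the 6% with the highest Scrublet scores per library (scanpy 1.11.5) were removed, 455 and 454. Scrublet's own threshold marked 11 (0.145%) and 256 (3.38%), so it did not work with gluten. Gated cells needed 2000 UMIs and at most 5 UMIs, and under 0.1%, of leukocyte and endothelial genes.

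Counts were summed per gate and library. Ratios are of CPM, with exact conditional binomial intervals; Poisson and Clopper-Pearson intervals were used for levels and shares. Genes with 50 or more UMIs on the higher side were measured, and a difference of 2-fold was called. Genes named are the 8 members, the 3 most alike to each, and list genes 2-fold apart between diets or among the 4 farthest apart between gates, beside known regulators and targets. Members and lists were chosen with earlier results of these data known. The steps were tested on simulated counts. Alternatives changed gates, scaling (TMM from edgeR 4.0.16 among them), depth, doublets and filters. The gate of ductal markers held 13.2% and 8.56% glucagon and was not used. Some genes of these lists are not reported here.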

Additional observations from a re-analysis of the deposited data

How the results depend on the processing

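With a minimum of 10 UMIs in place of 50, 1 factor was 2-fold apart between diets in delta cells (Nkx6-1) and 1 in PP cells (Pdx1), against none. With hormone dominance of 30 times, 0 factors were 2-fold apart in alpha cells against 1, since Mafa then fell under the 50 UMIs. Pax6 in beta over delta cells turned to a mean log2 ratio of 0.11 with TMM, against -1.18. Of the genes most alike to a member, 0 of 24 were shared between the top 3 by Pearson and by rank correlation. Ties leave the top 3 by rank undecided for members such as Isl1, so this count does not show that the 2 measures differ. Split into 2 parts by immediate early load, 1 factor (Mafa) was lower in the high part in both libraries, against 0 with 3 parts. Hhex in alpha cells, gluten over HC alone, ran from -2.46 (dominance of 30 times) to -0.14 (dominance of 2 times), and Isl1 in PP cells from -0.55 to -0.07. Mafa in beta cells ran between -0.19 and -0.14 and Nkx6-1 between -0.23 and -0.14 over all alternatives. No other count of factors moved by more than 1.5 times. No paired analysis was possible because each diet has 1 library. The number of PP cells, 44 in each library, limits their counts, with 4 of 8 factors measured between diets, and counting intervals do not hold the spread between animals.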

Other observations

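The genes Pax6os1 and 6430503K07Rik, on the strand opposite 2 of the members, followed them only in part across the gates. Pax6os1, which overlaps Pax6, had 5.58 CPM in beta, 0.724 in alpha and 18.6 in delta cells with gluten, and 4.06, 1.19 and 18.4 with HC alone, while Pax6 itself was also highest in delta cells, at 208 CPM with gluten and 277 with HC alone, but had 153 CPM in alpha cells of both libraries. 6430503K07Rik, which overlaps Nkx2-2, had 8.31 CPM in beta, 7.24 in alpha and 22.4 in delta cells with gluten, and 6.14, 5.75 and 20.4 with HC alone, while Nkx2-2 was lowest in delta cells. Reads may be split between overlapping genes, since the use of strand in counting is not known here.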
